A study of Pleurotus ostreatus with 9 samples.

Results

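The mitochondrial ribosomal protein genes of the oyster mushroom Pleurotus ostreatus were taken as every gene whose ontology annotation in the deposited table names the large or the small subunit of the mitochondrial ribosome. This gave 41 of the 10682 genes in the table, 26 of the large and 15 of the small subunit, and none carried both terms. Their messages were measured by poly(A) RNA sequencing in the mycelium of strain GEMB-PO1, in 9 shaken liquid cultures that form 3 groups of 3 biological replicates harvested on day 3. All cultures grew in the same glucose, yeast extract and peptone medium at 28 °C. The control group received no chemical, and no solvent control is named. Another group was exposed to the plasticizer butyl benzyl phthalate (BBP). The remaining group had BBP plus 1 mM piperonyl butoxide (PB), which inhibits P450 enzymes, and its 3 libraries are named PB replicates, or PB libraries, below. For BBP the stated dose is 50 mg/L in one field of the series and 200 mg/L in another. A group with PB alone was not analysed here, so an effect of PB without BBP cannot be told apart from an effect of PB on BBP-treated mycelium.

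The mitochondrial ribosome translates the few messages encoded in the mitochondrial genome, which in fungi are mainly membrane subunits of the respiratory chain and of ATP synthase. Nearly all of its proteins are encoded in the nucleus, made on cytosolic ribosomes and imported into the organelle, so their messages are part of the poly(A) pool. Many of them descend from bacterial ribosomal proteins and keep the bacterial names with an L for the large and an S for the small subunit. The ribosomal RNA is transcribed from the mitochondrial genome and was not analysed here. In baker's yeast the genes of the mitochondrial and of the cytosolic ribosome are known to be controlled through partly separate promoter elements.

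Total counts per library ran from 38098599 to 49161706, and 9399 genes with a mean of at least 1 FPKM (fragments scaled for gene length and library depth) were tested. All 41 genes passed this filter, and their counts ran from 148 to 4457 in a library. Changes are given as log2 fold change ± SE from edgeR's quasi-likelihood test on counts scaled by TMM factors, with Benjamini-Hochberg adjusted p over all 9399 genes, and a gene was called at an adjusted p under 0.05. FPKM values do not use the TMM factors, and when libraries were scaled by size alone the median of all genes moved by -0.11 for BBP against control, by -0.11 for BBP with PB against BBP and by -0.22 for BBP with PB against control. The vegetative mycelium hydrophobin gene PLEOSDRAFT_1091049 was at 570 to 843 FPKM in the controls, 10.5 to 102 FPKM with BBP and at most 0.767 FPKM with BBP and PB, and the fruit body hydrophobin gene PLEOSDRAFT_47325 was at most 0.613 FPKM in all libraries. Both markers were chosen after the words fixed earlier for this check had matched no gene.

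The annotation of the 41 genes was sparse. For 40 of them the description reads hypothetical protein. A KEGG orthology number was given for 24, and 20 of these belong to the ribosome pathway and name a protein of bacterial type in all cases but one. The exception is PLEOSDRAFT_1051820, whose number K02894 stands for the eukaryotic protein L23e. The term structural constituent of ribosome was carried by 39, and 4 also carried a cytosolic ribosome term, PLEOSDRAFT_1034155, PLEOSDRAFT_1051820, PLEOSDRAFT_1055283 and PLEOSDRAFT_162343. The other 4 orthology numbers name something else. PLEOSDRAFT_1036119 carries the number of the cytochrome c oxidase assembly factor COX11, and fission yeast is known to have genes in which COX11 is fused to a mitochondrial ribosomal protein. PLEOSDRAFT_1074900, with the longest gene model of the 41 (7844 bp against a median of 794), combines aconitate hydratase and lysine biosynthesis terms with the large-subunit term, carries a homoaconitase number and is described as a glycoside hydrolase. PLEOSDRAFT_1050002 and PLEOSDRAFT_1079737 share the terms for peptidyltransferase activity and mitochondrial translation, but both carry the number of a replication factor C subunit. Another 2 genes without an orthology number lack the structural term, PLEOSDRAFT_1107814, annotated as a release factor, and PLEOSDRAFT_48481, annotated with aminoacyl-tRNA hydrolase activity and the rescue of stalled ribosomes. PLEOSDRAFT_1090454 has both the structural term and the terms of a carboxyl esterase that demethylates proteins. None of the 41 gene models overlapped another gene model of the table. The 41 lay on 11 scaffolds, and the closest pair, PLEOSDRAFT_1088579 and PLEOSDRAFT_49535, was 10214 bp apart.

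As mean FPKM over the 9 libraries, the genes lay between 6.34 and 143 with a median of 43.5, and 34 of the 41 fell between 20 and 80 FPKM. The median over all tested genes was 20.7 FPKM and that over the cytosolic ribosome genes 374 FPKM. Large- and small-subunit genes had medians of 42.1 and 44.8 FPKM. The most expressed gene was PLEOSDRAFT_1056572, with the number of S6, at 164, 171 and 165 FPKM in the control libraries, 164, 168 and 118 with BBP and 121, 110.0 and 110.0 with BBP and PB. It was followed by PLEOSDRAFT_1091494 (L27), PLEOSDRAFT_1055283 (S18) and PLEOSDRAFT_1075979 (L11), all above 55 FPKM in each library. In bacteria S6 and S18 bind each other on the platform of the small subunit. Their genes had means of 143 and 92.6 FPKM over the 9 libraries. PLEOSDRAFT_1055283 was at 88.4, 111 and 95.9 FPKM in the control libraries, 90.05, 94.4 and 85.3 with BBP and 88.5, 93.4 and 86.7 with BBP and PB, and its groups overlapped. At the low end stood PLEOSDRAFT_1074900 and PLEOSDRAFT_1107814, the genes annotated as aconitate hydratase and release factor. PLEOSDRAFT_1074900 was at 5.15, 6.02 and 14.9 FPKM in the control libraries, 5.67, 5.80 and 5.71 with BBP and 4.28, 4.92 and 4.59 with BBP and PB, and control replicate 3 stood far above all other libraries. PLEOSDRAFT_1107814 was at 5.87, 8.25 and 7.50 FPKM in the control libraries, 4.97, 7.37 and 8.32 with BBP and 7.99, 7.13 and 7.72 with BBP and PB, and its groups overlapped. The next lowest were PLEOSDRAFT_1034155 (S5) and PLEOSDRAFT_1092096, described below.

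Summed over the 41 genes, the level was 2070, 2259 and 2363 FPKM in the control libraries, 1959, 1849 and 1758 with BBP, and 1840, 1716 and 1778 with BBP and PB. Every treated library was below every control library, and the treated groups overlapped. As a share of all counts the 41 genes made up 0.161% to 0.192% in control, 0.141% to 0.156% with BBP and 0.136% to 0.144% with BBP and PB. Both subunits were lower in the treated groups on this scale. The large-subunit sum was 1353 ± 104 FPKM in control (SD, n = 3), 1098 ± 53.8 with BBP and 1058 ± 46.5 with BBP and PB. The small-subunit sum was 878 ± 48.7, 757 ± 54.5 and 720.2 ± 17.1 FPKM. The ratio of the large to the small sum was 1.54 ± 0.0559, 1.45 ± 0.0746 and 1.47 ± 0.0379, and the groups overlapped. In bulk RNA, a change in the share of these messages cannot be told apart from a change in how much other messages contribute.

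**Figure D1:**
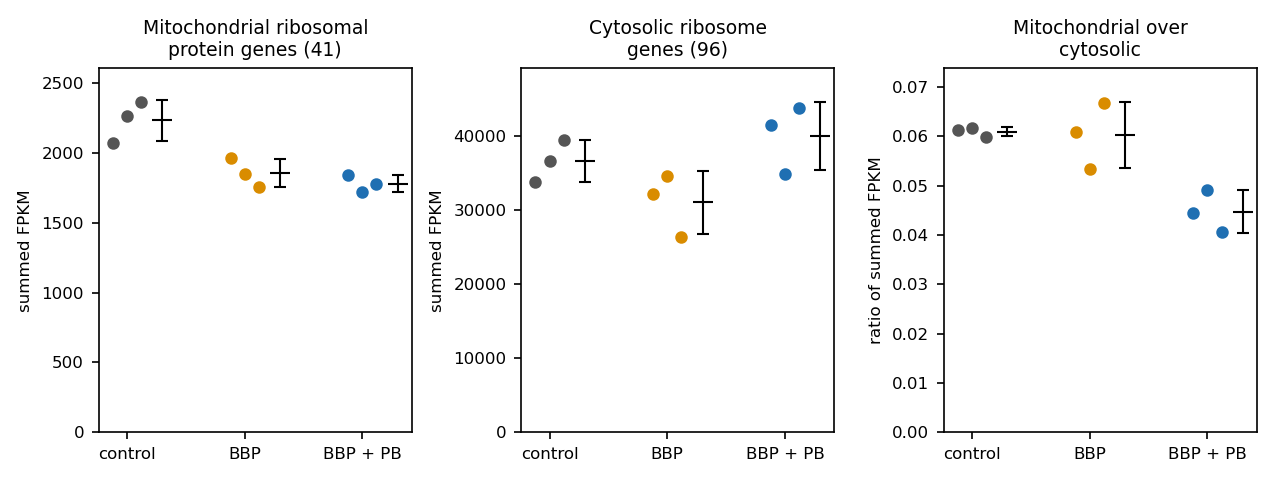
Summed FPKM per library of the 41 mitochondrial and the 96 cytosolic ribosomal genes, and the ratio of the sums (points, 3 libraries a group; bars, mean ± SD). All treated libraries lie below the controls for the mitochondrial genes, and the 3 ratios with BBP and PB, 0.0407 to 0.0492, are the lowest of the 9.

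The comparison of BBP with control asked how the plasticizer moves these genes. In this comparison 5 of the 41 genes fell and 0 rose, against a background of 8.33% lower and 10.1% higher among all tested genes. The 5 are 12.2% of the members, a share near the background. DESeq2 called 8 lower and 0 higher, where it called 11.3% of all genes lower and 13.3% higher. At an unadjusted p under 0.05 edgeR had 13 lower and 1 higher, against 16.9% and 17.4% of all genes. The median log2 change was -0.22 against -0.01 over all tested genes, and 34 of the 41 values were below 0, against 50.7% of all genes. Under scaling by library size alone 8 fell and 0 rose, against 11.8% and 7.28% of all genes, and the median was -0.32 against -0.11. In FPKM 23 of the 41 had all BBP libraries below all controls and 0 had them above, against 22.1% and 12.3% of all tested genes. The members' shares lower by DESeq2, at unadjusted p, under library-size scaling and in FPKM were above those of all genes. This excess was not tested. The SE of a change was 0.0949 to 0.306, and no gene of the 41 moved by 1 log2 unit in any comparison.

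The largest fall was that of PLEOSDRAFT_1092096, a large-subunit gene with no orthology number, at 16.1, 20.6 and 30.7 FPKM in the control libraries, 13.7, 9.59 and 10.8 with BBP and 15.8, 12.7 and 13.6 with BBP and PB. All BBP libraries lay below all controls, and control replicate 3 was the highest. Its log2 change was -0.86 ± 0.224, adjusted p = 0.0266. PLEOSDRAFT_1034155, with the number of S5, which in bacteria helps to set decoding fidelity, was at 17.3, 19.6 and 22.1 FPKM in the control libraries, 14.6, 11.9 and 12.5 with BBP and 14.02, 16.3 and 15.03 with BBP and PB. It too was lower in every BBP library than in any control (-0.49 ± 0.137, adjusted p = 0.0353). PLEOSDRAFT_1088579, with the number of S16, an assembly protein of the small subunit body in bacteria, was at 41.5, 46.4 and 46.2 FPKM in the control libraries, 33.7, 24.4 and 31.3 with BBP and 30.3, 32 and 30.4 with BBP and PB. The control libraries were all above 41 FPKM and the treated ones all below 34 FPKM (-0.48 ± 0.134, adjusted p = 0.035). PLEOSDRAFT_1075979, with the number of L11, which in bacteria forms the base of the stalk where translation factors bind, was at 91.6, 104 and 121 FPKM in the control libraries, 67.99, 80.6 and 72.02 with BBP and 63.3, 55.95 and 57.97 with BBP and PB. Its levels did not overlap between any 2 groups, and BBP against control gave -0.41 ± 0.112, adjusted p = 0.0326. PLEOSDRAFT_30852, with the number of L21, was at 73.6, 83.96 and 95.9 FPKM in the control libraries, 58.1, 64.9 and 56.5 with BBP and 66.99, 57.05 and 62.9 with BBP and PB. BBP libraries were again all below the controls, and the change was -0.39 ± 0.112, adjusted p = 0.0392.

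These 5 calls were close to the threshold. The call of PLEOSDRAFT_1092096 was lost without control libraries 2 or 3 or else BBP libraries 2 or 3 (adjusted p = 0.0506 to 0.0743). That of PLEOSDRAFT_1034155 was lost without control libraries 1, 2 or 3, BBP libraries 2 or 3 or else PB libraries 1 or 3 (adjusted p = 0.0504 to 0.089), and that of PLEOSDRAFT_1088579 without control libraries 1 or 2, BBP libraries 2 or 3 or else PB libraries 1, 2 or 3 (adjusted p = 0.053 to 0.091). The L11 gene lost its call without control libraries 2 or 3, BBP libraries 1 or 3 or else PB library 3 (adjusted p = 0.0557 to 0.0948), and the L21 gene without control libraries 1, 2 or 3, BBP libraries 1 or 3 or else PB libraries 1 or 3 (adjusted p = 0.0506 to 0.0985). Without control replicate 2, or without BBP replicate 3, 0 of the 41 were called in this comparison, and 2 without control replicate 3, BBP replicate 2 or PB replicate 1, 3 without control replicate 1 and 1 without PB replicate 3. When only the 6 libraries of these groups were fitted, edgeR also called 0. Calls among all genes dropped as well. The number lower was 364 in that fit, 383 without control replicate 2 and 536 without BBP replicate 3, against 783.

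**Figure D2:**
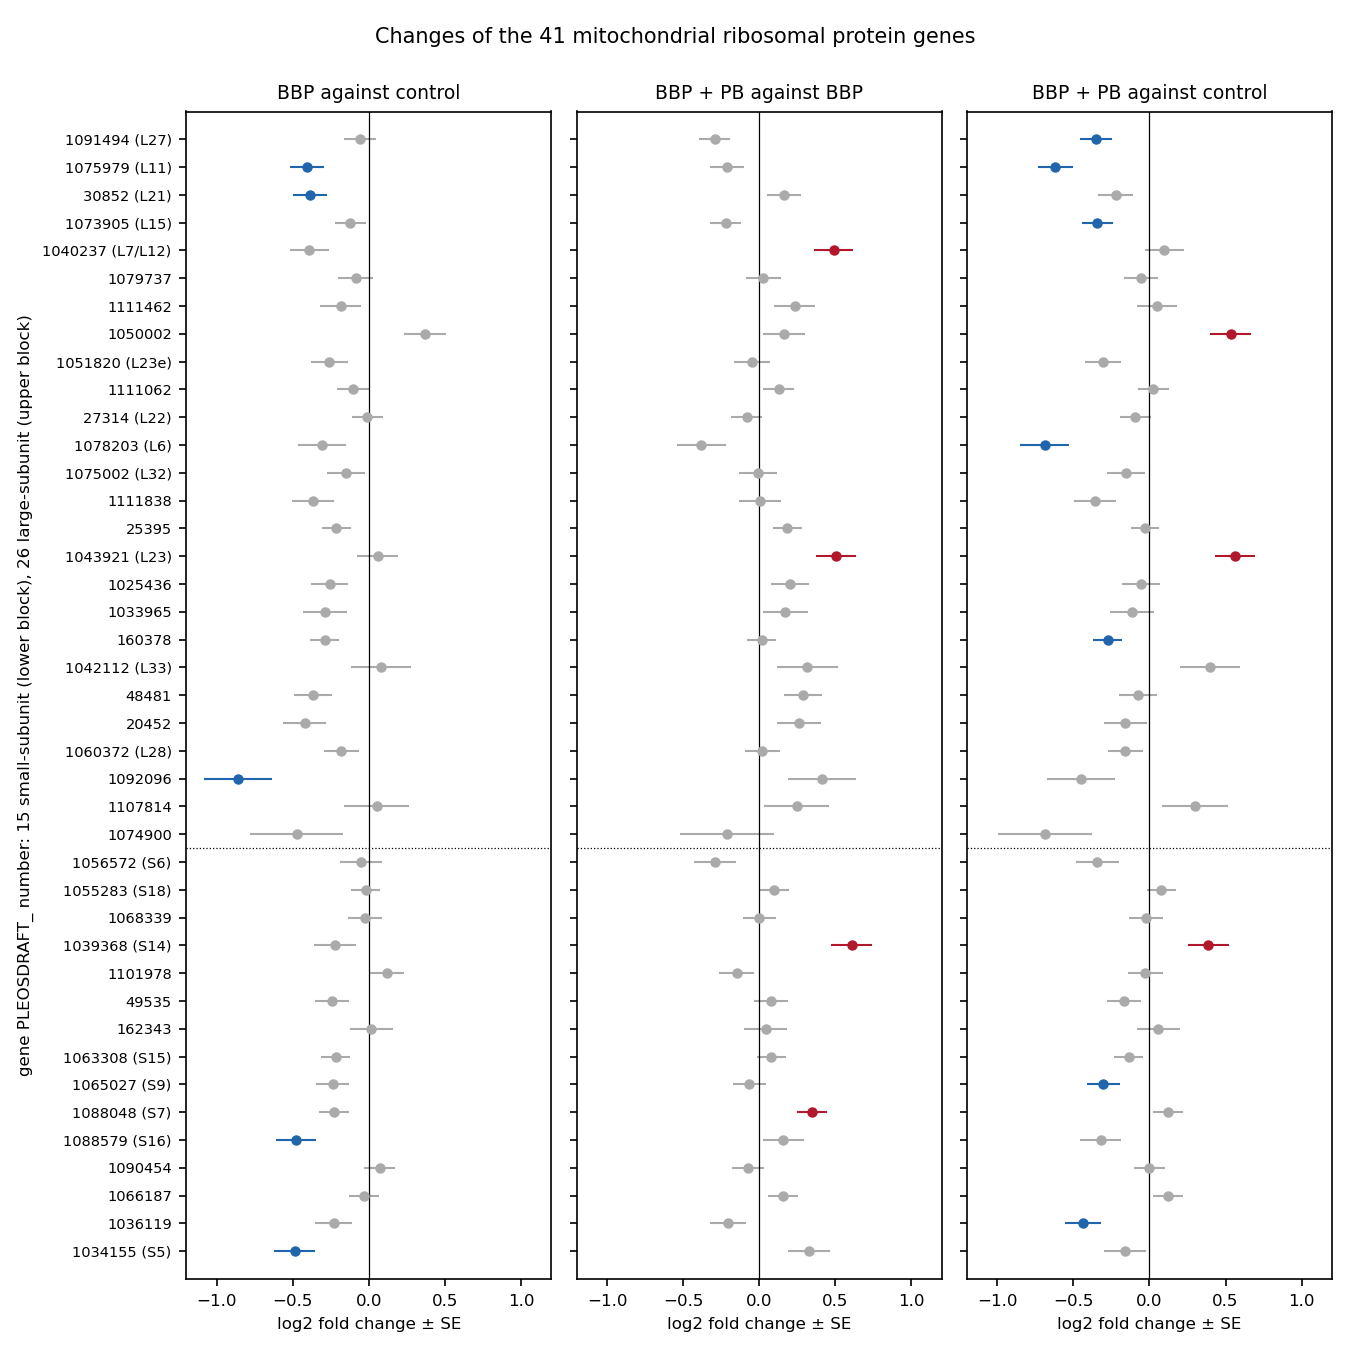
Log2 fold change ± SE of each of the 41 genes in the 3 comparisons, ordered by mean FPKM within the subunits; blue, called lower; red, called higher; grey, not called. With BBP 5 genes are blue, with PB added to BBP 4 are red, and for both chemicals against control 7 are blue and 3 red.

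Among genes that did not pass the test with BBP, the upper end was held by PLEOSDRAFT_1050002 (0.37 ± 0.136, adjusted p = 0.0862) and PLEOSDRAFT_1101978, a small-subunit gene (0.12 ± 0.115, adjusted p = 0.492). PLEOSDRAFT_1074900 had -0.47 ± 0.306, adjusted p = 0.304, and 0.10 without control replicate 3. Close to the threshold without passing it were PLEOSDRAFT_1040237, with the number of L7/L12 (-0.39 ± 0.126, adjusted p = 0.057), PLEOSDRAFT_160378 (-0.29 ± 0.0956, adjusted p = 0.0613) and PLEOSDRAFT_20452 (-0.42 ± 0.142, adjusted p = 0.0646). The ribosome-rescue gene PLEOSDRAFT_48481 was at 30.1, 31.2 and 29.1 FPKM in the control libraries, 22.1, 21.1 and 22.1 with BBP and 27.6, 22.1 and 24.5 with BBP and PB. Its BBP libraries lay below all controls, 1 PB library lay within their range, and the change was -0.37 ± 0.125, adjusted p = 0.0657.

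Libraries with both chemicals were next set against BBP alone, for what the P450 inhibitor adds. Here 4 of the 41 genes rose and 0 fell, against a background of 9.98% higher and 10.5% lower, so the share that rose, 9.76%, was again near the background. DESeq2 also called 4 higher and 0 lower, against 12.3% and 13.5% of all genes. At an unadjusted p under 0.05 edgeR had 6 higher and 2 lower, against 16.6% and 17.8%. The median was 0.08 against -0.01 over all genes, but under scaling by library size alone it was -0.03 against -0.12, with 1 gene higher and 1 lower, against 6.61% and 14.1% of all genes.

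PLEOSDRAFT_1039368, with the number of S14, a protein of the small-subunit head, was at 63.1, 61.3 and 63.9 FPKM in the control libraries, 50.4, 55.5 and 44.6 with BBP and 73.2, 61.6 and 78.7 with BBP and PB. Every PB library was above every BBP library, and the change was 0.61 ± 0.136, adjusted p = 0.0122. PLEOSDRAFT_1043921, with the number of L23, which in bacteria lines the exit of the peptide tunnel, was at 30.5, 31.3 and 40.8 FPKM in the control libraries, 31.8, 34.6 and 32.7 with BBP and 49.8, 41.4 and 39.3 with BBP and PB. BBP and control overlapped, while the PB libraries were all above the BBP ones (0.51 ± 0.133, adjusted p = 0.0252). PLEOSDRAFT_1040237, the L7/L12 gene, encodes a protein that in bacteria forms the mobile stalk that recruits translation factors. It was at 70.4, 74.4 and 85.3 FPKM in the control libraries, 63.1, 47.4 and 52.6 with BBP and 76.4, 69.1 and 67.03 with BBP and PB. The BBP libraries were the lowest, with no overlap with the PB libraries (0.49 ± 0.126, adjusted p = 0.023), and the PB libraries overlapped with the controls. PLEOSDRAFT_1088048, with the number of S7, an early rRNA-binding protein of the head in bacteria, was at 37.8, 45.99 and 42.1 FPKM in the control libraries, 31.6, 34.7 and 33.4 with BBP and 40.8, 37.97 and 39.3 with BBP and PB. It followed the same order, lowest with BBP (0.35 ± 0.0982, adjusted p = 0.0327).

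The S14 call was lost without PB library 3 (adjusted p = 0.0581), and the L7/L12 call without BBP library 3 or else PB libraries 1 or 2 (adjusted p = 0.0614 to 0.09). The L23 call was lost without BBP libraries 1 or 3 or else PB libraries 1 or 2 (adjusted p = 0.0568 to 0.0983), and the S7 call without BBP libraries 1 or 3 or else PB libraries 1, 2 or 3 (adjusted p = 0.0661 to 0.113). Under scaling by library size alone the L7/L12, L23 and S7 calls were lost (adjusted p = 0.0837, 0.0834 and 0.182). Without PB replicate 1 or 2 or BBP replicate 3, 1 gene was called higher, and without PB replicate 3 or BBP replicate 1 it was 2. Without BBP replicate 3, 1 gene was called lower. Among all genes the number higher was 587, 581 and 515 without PB replicates 1, 2 and 3, against 938. It was 548 and 648 without BBP replicates 1 and 3. The lowest values among genes that did not pass were those of PLEOSDRAFT_1078203 (-0.38 ± 0.159, adjusted p = 0.122) and PLEOSDRAFT_1091494 (-0.29 ± 0.104, adjusted p = 0.0738).

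**Figure D3:**
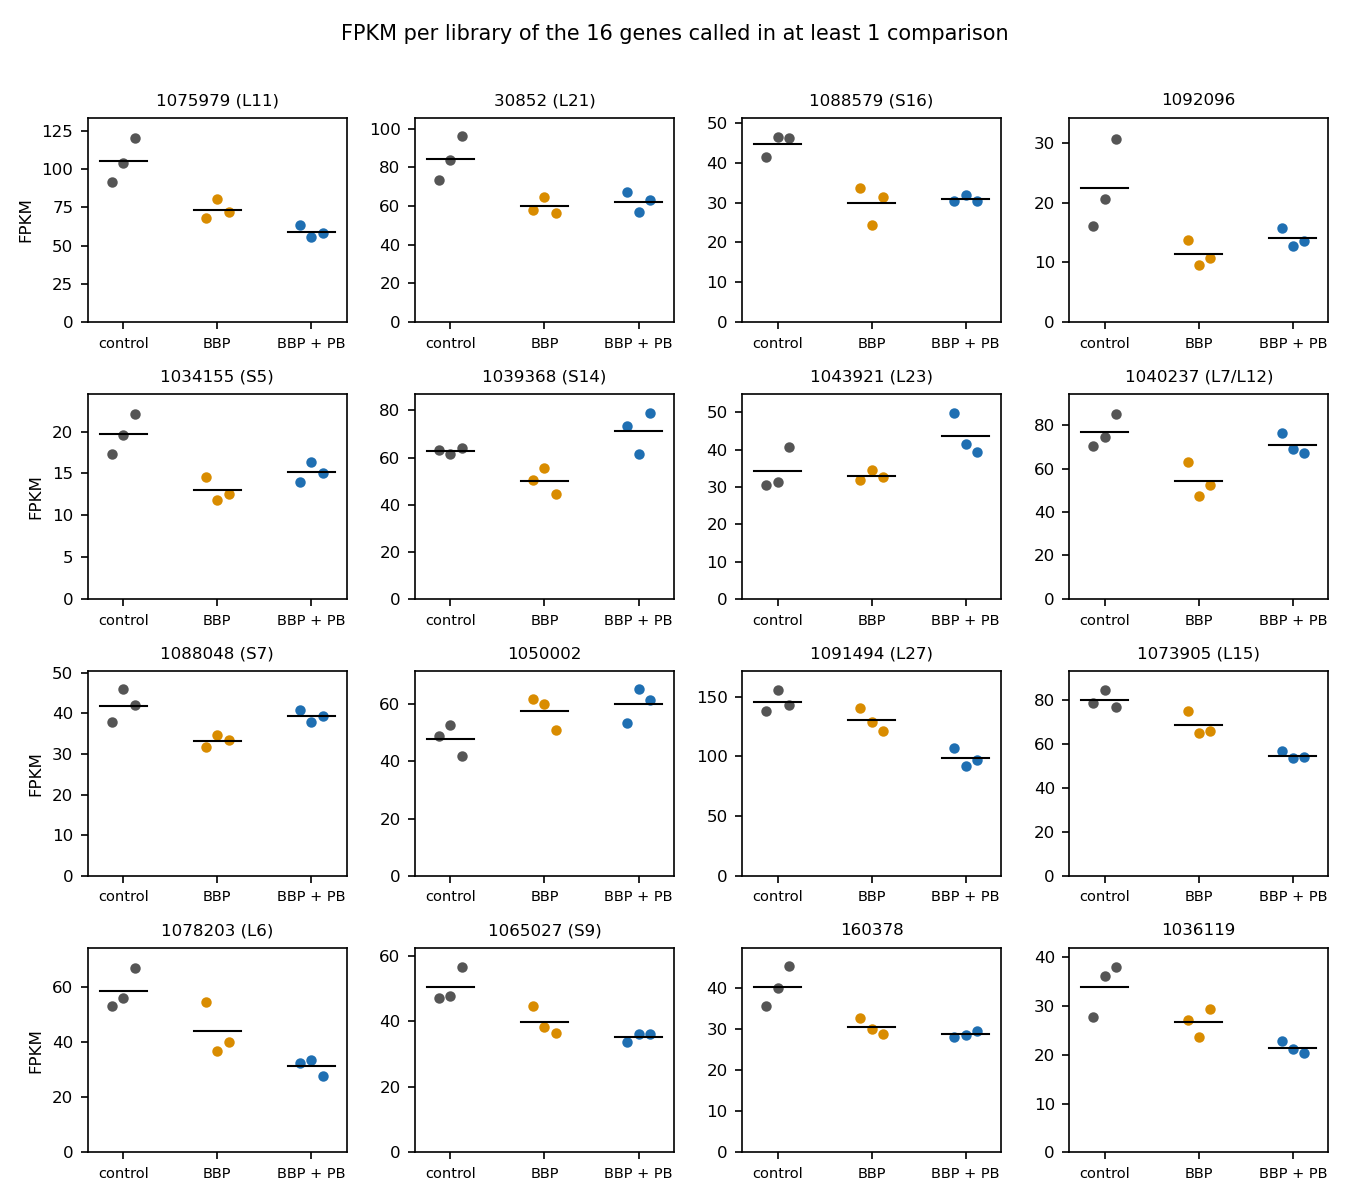
FPKM in each library (points) and group means (lines) of the 16 genes called in at least 1 comparison, with the protein of the orthology number in brackets; each y axis starts at 0. The L11, L27, L15, L6 and S9 genes have their lowest group mean with BBP and PB, whereas the L7/L12, S7 and S14 genes have theirs with BBP.

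Against control, the libraries with BBP and PB had 7 of the 41 genes lower and 3 higher, against a background of 21.2% lower and 19.9% higher. Both shares, 17.1% and 7.32%, were below those of all genes. This comparison shares its controls with the first and its treated libraries with the second. The median was -0.12 against -0.04 over all genes. Under scaling by library size alone 19 were lower and 0 higher, against 33.9% and 12.7% of all genes, with a median of -0.33 against -0.26. The counts of the 41 and of all genes both moved with the scaling. In FPKM 28 of the 41 had all PB libraries below all controls and 1 had them above, against 40.0% and 17.1% of all genes.

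Among called genes, the largest fall was that of PLEOSDRAFT_1078203, with the number of L6, which in bacteria lies near the factor-binding region of the large subunit. It was at 52.9, 55.9 and 66.7 FPKM in the control libraries, 54.5, 36.9 and 40.1 with BBP and 32.5, 33.6 and 27.6 with BBP and PB. All PB libraries were below all BBP and control libraries (-0.69 ± 0.159, adjusted p = 0.00692). The L11 gene PLEOSDRAFT_1075979, whose values are given above, was lowest with BBP and PB (-0.62 ± 0.113, adjusted p = 0.00206). PLEOSDRAFT_1074900 had nearly as large a value without passing the test (-0.69 ± 0.307, adjusted p = 0.1), and -0.10 without control replicate 3. PLEOSDRAFT_1091494, with the number of L27, whose bacterial counterpart reaches toward the peptidyl transferase centre, was at 138, 155 and 143 FPKM in the control libraries, 140.5, 128 and 121 with BBP and 107, 91.8 and 97.1 with BBP and PB. BBP and control overlapped, and the PB libraries were below both (-0.35 ± 0.104, adjusted p = 0.0217). PLEOSDRAFT_1073905, with the number of L15, was at 78.6, 84.6 and 76.8 FPKM in the control libraries, 74.9, 64.9 and 65.7 with BBP and 56.8, 53.4 and 53.8 with BBP and PB. It had no overlap between the 3 groups, and BBP with PB against control gave -0.34 ± 0.104, adjusted p = 0.0243. The COX11-numbered gene PLEOSDRAFT_1036119 was at 27.6, 36.1 and 37.9 FPKM in the control libraries, 27.02, 23.5 and 29.3 with BBP and 22.8, 21.2 and 20.4 with BBP and PB. Its PB libraries were the lowest (-0.44 ± 0.12, adjusted p = 0.0153). PLEOSDRAFT_1065027, with the number of S9, whose tail in bacteria touches the tRNA in the peptidyl site, was at 47.1, 47.7 and 56.7 FPKM in the control libraries, 44.7, 38.3 and 36.6 with BBP and 33.8, 36.2 and 36.2 with BBP and PB. The PB libraries lay below all others (-0.30 ± 0.109, adjusted p = 0.0481). PLEOSDRAFT_160378, a large-subunit gene with the mitochondrial translation term and no orthology number, was at 35.6, 40 and 45.2 FPKM in the control libraries, 32.6, 30.1 and 28.9 with BBP and 28.01, 28.5 and 29.6 with BBP and PB. Both treated groups were below the controls, and BBP with PB gave -0.27 ± 0.0957, adjusted p = 0.0432.

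The 3 genes that rose were the L23 gene PLEOSDRAFT_1043921 (0.56 ± 0.133, adjusted p = 0.00793), PLEOSDRAFT_1050002 (0.53 ± 0.137, adjusted p = 0.0115) and the S14 gene PLEOSDRAFT_1039368 (0.39 ± 0.135, adjusted p = 0.0435). In FPKM the groups overlapped for the L23 gene, where control replicate 3 was above PB replicate 3, and for the S14 gene, where PB replicate 2 was below control replicates 1 and 3. All 3 calls were lost under scaling by library size alone (adjusted p = 0.0771, 0.0779 and 0.333 in the same order), under which the S14 value was 0.18, the L23 value 0.34 and that of PLEOSDRAFT_1050002 0.32. Leaving out 1 library at a time, the L23, L11 and L6 calls were kept in all 9 fits. The call of PLEOSDRAFT_1050002 was lost without PB library 2 (adjusted p = 0.0529), and the S14 gene dropped out without control libraries 2 or 3, BBP library 1 or else PB libraries 1 or 3 (adjusted p = 0.0593 to 0.153). The COX11-numbered gene lost its call without control library 2 or else PB library 3 (adjusted p = 0.0539 to 0.0652), the L15 gene without control libraries 1 or 2 or else PB libraries 2 or 3 (adjusted p = 0.0746 to 0.0865) and the L27 gene without control libraries 1 or 2 or else PB libraries 2 or 3 (adjusted p = 0.0566 to 0.0817). The S9 gene was no longer called without control libraries 1 or 3, BBP library 3 or else PB libraries 1, 2 or 3 (adjusted p = 0.0505 to 0.133), and that of PLEOSDRAFT_160378 without control libraries 1, 2 or 3, BBP library 1 or else PB libraries 1, 2 or 3 (adjusted p = 0.0522 to 0.111). The S14 call was also lost with no filter on low values (adjusted p = 0.0556) and with edgeR's filterByExpr (adjusted p = 0.0522). The S9 call was also lost with RLE scaling (adjusted p = 0.0539) and by DESeq2 (adjusted p = 0.0516). The number called lower was 2 without PB replicate 3, 3 without PB replicate 2 or control replicate 2, and 4 without control replicate 1. Among all genes it was 1428, 1511, 1523 and 1878 without these libraries in the same order, against 1994.

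PLEOSDRAFT_1050002 and PLEOSDRAFT_1079737 carry the same terms and lie on the same scaffold, so reads may have been split between them by the counting if their sequences are alike, which was not tested. The first was at 48.7, 52.9 and 41.9 FPKM in the control libraries, 62.03, 59.99 and 51.04 with BBP and 53.6, 65.2 and 61.5 with BBP and PB. The second was at 63.9, 66.9 and 62.5 FPKM in the control libraries, 57.9, 56.8 and 54.9 with BBP and 58.3, 47.2 and 55.3 with BBP and PB. The order of the groups differed between them, with the control lowest for the first and highest for the second. PLEOSDRAFT_1079737 was not called in any comparison (-0.06 ± 0.113, adjusted p = 0.71 for BBP with PB against control). The fold change of the first is therefore uncertain as that of a single gene.

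Of the 41 genes 25 were called in none of the 3 comparisons, 13 in 1 and 3 in 2. The 3 were the L11 gene, lower in both comparisons with control, and the L23 and S14 genes, higher with PB against both other groups. By subunit, with BBP 3 of 26 large-subunit genes fell (median -0.24) and 2 of 15 small-subunit genes (median -0.22). With PB added to BBP 2 genes of each subunit rose (medians 0.15 and 0.08). With BBP and PB against control 5 large-subunit genes fell and 2 rose (median -0.14), and 2 small-subunit genes fell and 1 rose (median -0.03). The shares that fell with BBP, 11.5% and 13.3%, stand beside 8.33% of all genes. Those that rose with PB added, 7.69% and 13.3%, stand beside 9.98%. Against control 19.2% and 13.3% fell, beside 21.2% of all genes, and 7.69% and 6.67% rose, beside 19.9%. No difference between the subunits was tested, since genes are not replicates. Among uncalled genes of known bacterial type, PLEOSDRAFT_1063308 (S15), PLEOSDRAFT_1075002 (L32), PLEOSDRAFT_27314 (L22), PLEOSDRAFT_1060372 (L28) and PLEOSDRAFT_1042112 (L33) ran from -0.22 to 0.08 with BBP. The L33 gene was the highest of these with BBP and PB against control, at 0.40 ± 0.198, adjusted p = 0.132, and the L23e-numbered PLEOSDRAFT_1051820 had -0.30 ± 0.119, adjusted p = 0.065. The S6 gene had -0.34 ± 0.138, adjusted p = 0.0728.

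The genes of the cytosolic ribosome, listed from their ontology terms, are set beside the mitochondrial ones. Of 95 tested cytosolic ribosome genes 46 rose and 0 fell for BBP with PB against BBP (edgeR, median 0.47), where 4 of 41 mitochondrial ones rose (median 0.08). Among all genes 9.98% were called higher. DESeq2 called 58 higher and 0 lower, against 12.3% and 13.5% of all genes, and at an unadjusted p under 0.05 edgeR had 66 higher and 1 lower, against 16.6% and 17.8%. The count of 46 was 22 under scaling by library size alone (6.61% of all genes), 23 without BBP replicate 1, 18 without BBP replicate 3, 15 without PB replicate 1 and 11 without PB replicate 3. Among all genes the number higher was 548, 648, 587 and 515 in these fits with 1 library left out, against 938. Without control replicate 3, 1 cytosolic gene was called lower. With BBP alone 6 cytosolic genes fell and 1 rose, or 6.32% and 1.05%, below the 8.33% and 10.1% of all genes. Their median was -0.16, beside the -0.22 of the mitochondrial list. Without BBP replicate 1 or 3 or PB replicate 1 or 3 the number lower was 2. Among all genes it was 480, 536, 615 and 553 in these fits, against 783. The cytosolic sum was 36612 ± 2829 FPKM in control, 31026 ± 4255 with BBP and 40015 ± 4598 with BBP and PB. The ratio of the mitochondrial to the cytosolic sum, which no scaling of a library can change, was 0.0613, 0.0617 and 0.0599 in the controls, 0.0609, 0.0534 and 0.0668 with BBP, and 0.0444, 0.0492 and 0.0407 with BBP and PB. The 3 values with PB were the lowest of the 9, whereas BBP and control overlapped. This ratio and the difference between the 2 lists were not tested.

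The rest of the mitochondrial translation machinery, listed from ontology terms and description words without the 41 genes, is a shorter set. In this set 1 gene is also in the cytosolic ribosome list, and 11 carry the general mitochondrion term. Of 13 genes for mitochondrial translation and its factors 1 rose and 1 fell with BBP, 1 rose and 0 fell with PB added to BBP by edgeR, and 3 rose and 3 fell against control. Among all genes 10.1% rose and 8.33% fell with BBP, 9.98% and 10.5% with PB added, and 19.9% and 21.2% against control. The list's shares of 7.69% each with BBP and 23.1% each against control were near these. For PB added to BBP DESeq2 also called 1 and 0, against 12.3% and 13.5% of all genes. Unadjusted edgeR had 2 higher and 0 lower, against 16.6% and 17.8%. Against control the number higher was 1 without control replicate 2 or PB replicate 1 or 3, and the number lower was 1 without control replicate 2 or 3 or PB replicate 2 or 3. The genes named from these lists were chosen after their values were seen. The one that rose with BBP was PLEOSDRAFT_9827, annotated as a deaminase with the mitochondrial translation term, at 77.3, 92.6 and 98.3 FPKM in the control libraries, 179.6, 164 and 196 with BBP and 165, 149 and 188 with BBP and PB (1.12 ± 0.117, adjusted p = 0.000447). The one that fell, PLEOSDRAFT_1077696, is annotated as a mitochondrial release factor, which ends translation at stop codons, and went from 12.3 ± 2.76 to 6.88 ± 0.434 FPKM (-0.72 ± 0.175, adjusted p = 0.0198). Leaving out BBP replicate 1 or 2 ended that call (adjusted p = 0.0545 and 0.0532). PLEOSDRAFT_49695, annotated as a mitochondrial elongation factor, rose with PB from 5.18 ± 0.266 to 8.91 ± 1.21 FPKM (0.89 ± 0.171, adjusted p = 0.00629). Of 14 genes for mitochondrial tRNA charging, 4 of them also in the list before, 0 rose and 1 fell with BBP, the mitochondrial tryptophan-tRNA ligase gene PLEOSDRAFT_1033382, from 9.71 ± 2.75 to 4.25 ± 0.436 FPKM (-1.07 ± 0.188, adjusted p = 0.00517). DESeq2 also called 0 higher, against 13.3% of all genes, and unadjusted edgeR had 0 higher and 1 lower, against 17.4% and 16.9%. With PB added to BBP 1 rose and 2 fell, or 7.14% and 14.3%, and so against control, beside the backgrounds given above. With 1 library left out the number higher dropped to 0 in 7 of the 9 fits of each.

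The genes that import proteins into mitochondria serve the route by which the ribosomal proteins arrive. Of 17 such genes 10 fell and 1 rose against control, with a median of -0.40, beside the background of 21.2% lower and 19.9% higher. With BBP alone 2 fell and 0 rose (median -0.18), against 8.33% and 10.1% of all genes. With PB against BBP 3 fell and 0 rose (median -0.19), against 10.5% and 9.98%. DESeq2 also called 0 higher in both, against 13.3% and 12.3% of all genes. Unadjusted edgeR had 0 higher and 5 lower in the former, against 17.4% and 16.9%. In the latter it had 2 higher and 6 lower, against 16.6% and 17.8%. Without control replicate 2 the 10 became 6, and with 1 library left out the 2 and the 3 dropped to 1 in 7 and 3 of the 9 fits. The largest fall was that of PLEOSDRAFT_1077825, an inner-membrane gene with a chaperone-binding term, at 44.3, 70.5 and 65.9 FPKM in the control libraries, 52.1, 34.2 and 39.01 with BBP and 26.6, 23.03 and 23.7 with BBP and PB (-1.08 ± 0.175, adjusted p = 0.00109). PLEOSDRAFT_1112729, of the presequence translocase of the inner membrane, went from 91.4 ± 14.4 to 47.7 ± 6.54 FPKM (-0.72 ± 0.186, adjusted p = 0.0121), and leaving out control replicate 2 or PB replicate 3 ended the call (adjusted p = 0.0516 and 0.0504). PLEOSDRAFT_50689, of the same complex, went from 34 ± 4.62 to 19.1 ± 3.49 FPKM with BBP and 19.01 ± 2.67 with BBP and PB (-0.62 ± 0.157, adjusted p = 0.0109). The one that rose, PLEOSDRAFT_1093556, has the import motor term among terms for protein refolding, and its call (0.42 ± 0.126, adjusted p = 0.0248) was lost under scaling by library size alone (adjusted p = 0.234) and without control replicate 2 or PB replicate 1, 2 or 3 (adjusted p = 0.0598 to 0.0748). Oxidative phosphorylation is the pathway that the products of mitochondrial translation serve. Of its 85 tested genes 10 rose and 8 fell with BBP and PB against control (median 0.04). These shares, 11.8% and 9.41%, were below the 19.9% and 21.2% of all genes. Under scaling by library size alone 3 rose and 15 fell, against 12.7% and 33.9% of all genes. Without control replicate 1 or 2 or PB replicate 2 or 3 the number lower was 4, 3, 2 and 4, and without control replicate 2 or PB replicate 1, 2 or 3 the number higher was 6, 5, 5 and 5.

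**Figure D4:**
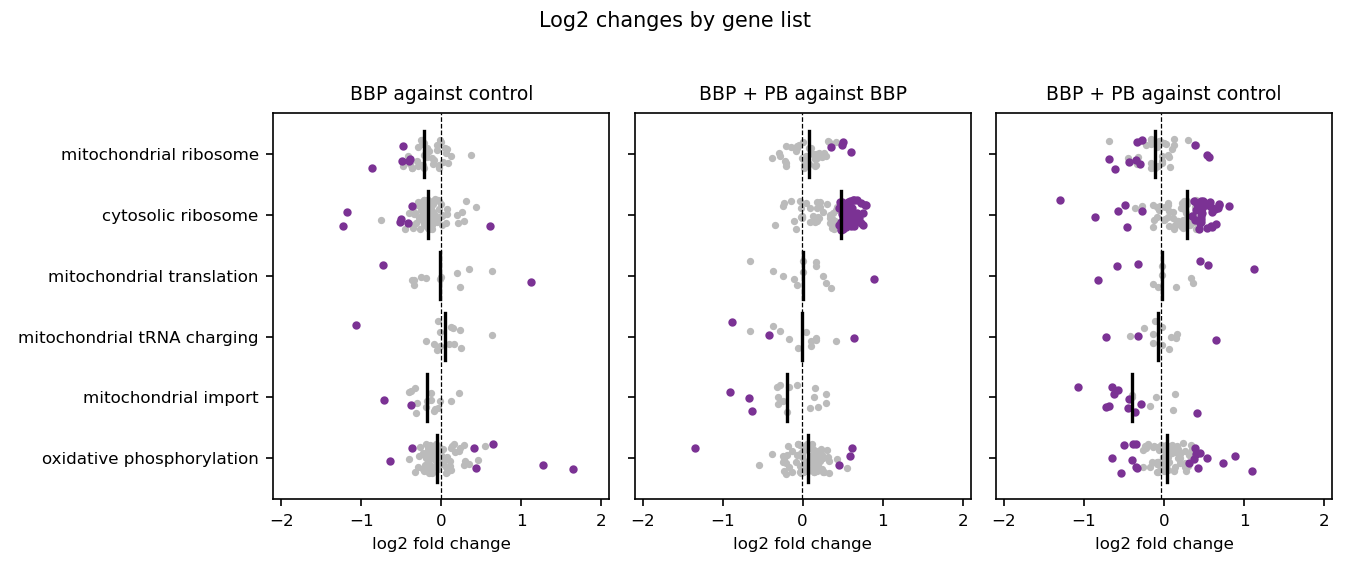
Log2 fold changes of the tested genes of 6 lists in the 3 comparisons (points, purple where called; black bar, median of the list; dashed line, median of all tested genes). The cytosolic ribosome stands to the right of the mitochondrial ribosome when PB is added to BBP, with medians of 0.47 and 0.08, and mitochondrial import stands to the left against control, at -0.40.

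A further 3 genes carry the general term mitochondrial ribosome and were not taken by the subunit terms. PLEOSDRAFT_1044393, with the number of S12, the decoding-site protein in bacteria, was at 52.7, 59.9 and 61.4 FPKM in the control libraries, 50.2, 44.4 and 38.9 with BBP and 36.1, 40.7 and 41.3 with BBP and PB. Both treated groups were below the controls, and BBP with PB gave -0.35 ± 0.116, adjusted p = 0.0367. Leaving out any 1 of the 6 libraries of these 2 groups ended the call (adjusted p = 0.0579 to 0.122). PLEOSDRAFT_1107685, a second gene with the COX11 number, had 0.41 ± 0.108, adjusted p = 0.0271 with BBP. This call was lost under scaling by library size alone (adjusted p = 0.116), when only the 2 groups were fitted (adjusted p = 0.0827) and without control library 2 or BBP libraries 2 or 3 (adjusted p = 0.0536 to 0.0875). PLEOSDRAFT_1036119 had -0.23 ± 0.119, adjusted p = 0.2, and the difference was not tested. PLEOSDRAFT_1095408, annotated as a hydroxyisobutyryl-CoA hydrolase, was called in none of the 3 comparisons (-0.06 ± 0.097, adjusted p = 0.697 with BBP).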

How the data were processed

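Poly(A) RNA from 9 mycelium cultures, 3 per group, was sequenced as paired reads from libraries with dUTP second strands, per the labels' protocols. The authors deposited raw read counts and FPKM values per gene in a table of 10682 genes with ontology and KEGG annotation. The submitters' processing notes name fastp, HISAT2 and StringTie. Not given in the sources used here are the genome build, the counting tool and the strand setting.

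The counts were tested with edgeR 4.0.16 (R 4.3.3) in a fit over all 9 libraries, with TMM scaling, on the 9399 genes with a mean of at least 1 FPKM. P-values are two-sided and were adjusted by Benjamini-Hochberg over these genes, with calls at 0.05. The SE was taken from the log2 change and the quasi-likelihood F. The deposited FPKM values served for levels and, as log2(FPKM + 1) or log2(FPKM + 0.1), for limma 3.58.1, and DESeq2 1.42.0 was run on the counts. The script was tested on simulated data with 50 genes changed at each of several sizes. Of those changed by 0.5 log2 units, 10 were recovered for BBP against control, 2 for PB added to BBP and 1 for both against control. At 1 log2 unit the numbers were 38, 37 and 26. These numbers do not give the recovery rate of the ribosomal genes, nor do they rank the comparisons. The adjustment is stricter when fewer genes change, and the data had 1871 genes called higher and 1994 lower for both against control. There PLEOSDRAFT_160378 was called at -0.27 ± 0.0957, and PLEOSDRAFT_1074900 was not called at -0.69 ± 0.307. An uncalled gene may still have changed by 0.5 or 1 log2 units. Alternatives also covered the scaling, the filter, a replicate block, fits of 2 groups and leaving out each library.

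Named genes were those called in any comparison, the 4 highest and 4 lowest by mean FPKM, the 2 largest rises and falls per comparison, and up to 6 others with a ribosomal orthology number. Genes of the other lists were named after their values were seen. Protein names were assigned to the orthology numbers from general knowledge of KEGG. The members and lists were chosen with earlier results of these data known. The series calls the replicates biological without naming separate starting cultures, so p-values measure the spread between these libraries, which may be technical in part. None of the 11849 genes of the reference table matched the gene IDs (0 matched), and no sequence or position is printed.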

Additional observations from a re-analysis of the deposited data

How the results depend on the processing

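With BBP against control, the number of the 41 genes called lower was 8 under scaling by library size alone, 8 by DESeq2, 0 when only the 2 groups were fitted, and 0 to 4 with 1 library left out, against 5. Among all genes the number lower was 1108, 1064, 364 and 383 to 912 in these settings, against 783. With PB added to BBP, the number higher was 1 under scaling by library size alone, 1 by limma with either pseudocount and 1 to 4 with 1 library left out, against 4. The number lower was 1, 1 and 1 in those settings and 0 to 1 with 1 library left out, against 0. Among all genes 621 were higher under scaling by library size alone and 619 and 578 by limma, against 938. For the number lower these were 1327, 1188 and 1152, against 983. With 1 library left out 515 to 1268 of all genes were higher and 536 to 1193 lower. With BBP and PB against control, the number higher was 0 under scaling by library size alone and 0 by limma with either pseudocount, against 3, and 2 to 3 with 1 library left out. The number lower was 19 under scaling by library size alone, 17 and 16 by limma with a pseudocount of 1 and 0.1, and 2 to 10 with 1 library left out, against 7. Among all genes 33.9%, 32.2% and 31.7% were lower in the first 3 of these settings, against 21.2%. In the same settings 12.7%, 13.2% and 13.1% of all genes were higher, against 19.9%. With 1 library left out 1449 to 2004 of all genes were higher, against 1871. The number lower was then 1428 to 2165, against 1994.

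The median log2 change of the list was -0.32, -0.32 and -0.32 for BBP against control under scaling by library size alone and by limma with a pseudocount of 1 and 0.1. It was -0.030, -0.026 and -0.027 for PB added to BBP and -0.33, -0.32 and -0.33 for both chemicals against control. With 1 library left out it ran from -0.24 to -0.18, from 0.07 to 0.12 and from -0.17 to -0.053 in the 3 comparisons. Limma on FPKM and the library-size scaling both leave out the TMM factors.

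The shared replicate numbers showed no clear pairing of the libraries. Correlations of same-numbered deviations ran from -0.14 to 0.16, and those of differently numbered ones from -0.20 to 0.12. Whether single pairs shared a batch was not tested. With the replicate block 1 of the 41 was called lower with BBP, 2 higher with PB added to BBP, and 5 lower and 2 higher for both against control. The next counts cover the 27 named genes of the 41 and a chosen set from the translation, tRNA charging and import lists. Of these 2223 values 2001 kept their direction and side of the threshold or were uncalled throughout, 172 lost and 50 gained a call. A further count is that 76 uncalled values changed sign. Of the 19 calls among the 41 genes, the number kept ran from 7 without PB replicate 3 to 19 under upper-quartile scaling. It was 9 without control replicate 2 and 10 with the replicate block. As 1 alternative 5 genes of other annotation were left out: PLEOSDRAFT_1036119, PLEOSDRAFT_1074900, PLEOSDRAFT_1090454, PLEOSDRAFT_1107814 and PLEOSDRAFT_48481. PLEOSDRAFT_1050002 and PLEOSDRAFT_1079737, with the replication factor C number, were kept in. Without these 5, or without the 4 with a cytosolic term, no count moved by more than 1. These 2 alternatives were chosen after seeing the data. Depth was at least 148 counts per gene and library.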

Other observations

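By a rule on likeness, the 5 other genes of at least 10 FPKM whose log2 levels followed the summed level of the 41 most closely over the 9 libraries were PLEOSDRAFT_1037971, PLEOSDRAFT_1035256, PLEOSDRAFT_1090758, PLEOSDRAFT_16482 and PLEOSDRAFT_1034114, out of 6345 screened. All 5 are described as hypothetical proteins. The 9 points fall into 3 groups and share their library depth, so the order is a description with no test.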
